A study of Mus musculus with 52 samples.

Results

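Imprinted genes are transcribed mainly from 1 parental copy, and 31 of them were followed here across 13 direct comparisons of 7 mouse embryonic stem (ES) cell lines. They were taken by symbol from the platform annotation and lay on 41 of the 20794 probes, among 9030 named genes. The paternally expressed class held 14 genes, from Snrpn to Slc38a4, and the maternally expressed class 18, from Cdkn1c to Nap1l4. Gnas, which has transcripts of both kinds, was in both classes. Of these genes 23 had 1 probe, 6 had 2 and 2 had 3.

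Imprinted expression is set in the germ line, where DNA methylation of control regions marks the maternal or the paternal copy, and the mark is kept through the cell divisions of the embryo. Many paternally expressed genes promote fetal growth and many maternally expressed ones restrain it. In cultured ES cells such marks are known to be lost or altered from line to line. A ratio of total RNA between lines does not show which parental copy was transcribed, and methylation was not measured here.

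Named as in the labels, the lines were HM-1 and HM-1 NT, 3 with B6 in their name (#4 (B6), B6NT and B6PGA), and the pair PDCUMNT and ZFCUMNT. The study asked how ES lines differ with the source of the donor nucleus, and it states that a pair of lines came from cumulus cell nuclei by different cloning methods. Strain, sex, passage and the meaning of the short names are not given in the sources used here. Each name is 1 line, so line and donor source cannot be told apart. Every comparison had 4 two-colour arrays, with the second-named line in Cy5 on arrays 1 and 2 and in Cy3 on arrays 3 and 4. Nothing states that the 4 arrays came from separate cultures, so p-values measure the spread between arrays, which may be technical.

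Values are log2 ratios of the second-named over the first-named line under the reading that the deposited ratio is Cy5 over Cy3. The numerator dye and the log base are not given in the sources used here. Every sign turns at once if the dyes were the other way round, and so does every order of lines: lowest, highest, above and below are all meant under this reading. Over all features, arrays of opposite dye orientation correlated above 0 before turning in 12 of the 13 comparisons and after turning in 1. Of the 52 arrays, 45 correlated above 0 with line values estimated from the other 12 comparisons. These correlations were small, from -0.08 to 0.18. Over the 300 features with the largest differences by line, 39 arrays were above 0. No such count was made for unturned ratios. Because only ratios were deposited, ES identity could not be checked from levels. In a ratio of RNA, fewer cells with a transcript and less of it per cell cannot be told apart.

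Most of the imprinted genes were not called in any comparison. Of 381 tests of a member in a comparison, 8 passed an adjusted p of 0.05 (limma, Benjamini-Hochberg within each comparison), of which 7 concerned paternally expressed genes. The share of all features called ran from 0.101% in HM-1 vs ZFCUMNT to 1.22% in #4 (B6) vs B6PGA. Peg3 passed in 4 comparisons, Nnat in 2, and Inpp5f and Ascl2 in 1 each. The ratios could also be left as they stand, which would be right only if they had been turned before deposit. Then 5 tests passed and none was among these 8. They lay in HM-1 vs HM-1 NT, HM-1 vs #4 (B6), HM-1 vs PDCUMNT, #4 (B6) vs ZFCUMNT and HM-1 NT vs ZFCUMNT. There the unturned ratios gave 618, 918, 468, 811 and 562 calls over all features, against 41, 36, 180, 147 and 44 when turned. Such calls also rose in HM-1 vs B6NT (28 to 56), HM-1 vs B6PGA (80 to 287) and HM-1 vs ZFCUMNT (16 to 36). So did those in B6NT vs HM-1 NT (158 to 159), #4 (B6) vs B6PGA (189 to 271) and PDCUMNT vs ZFCUMNT (118 to 285). Only in B6NT vs ZFCUMNT and #4 (B6) vs B6NT did they fall, from 20 to 15 and from 39 to 25.

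The calls were spread unevenly over the comparisons. In B6NT vs HM-1 NT 2 of 30 members tested were called, against 1.04% of all features. In #4 (B6) vs ZFCUMNT 2 of 27 were called, against 0.935%. A single member was called in HM-1 vs B6NT (1 of 31, background 0.17%), HM-1 vs PDCUMNT (1 of 29, 1.14%), HM-1 vs ZFCUMNT (1 of 30, 0.101%) and #4 (B6) vs B6PGA (1 of 28, 1.22%). No member passed in 7 comparisons, namely HM-1 vs HM-1 NT (background 0.254%), HM-1 vs #4 (B6) (0.219%), HM-1 vs B6PGA (0.494%), B6NT vs ZFCUMNT (0.124%), #4 (B6) vs B6NT (0.245%), HM-1 NT vs ZFCUMNT (0.292%) or PDCUMNT vs ZFCUMNT (0.763%). There the members with an unadjusted p under 0.05 numbered 1, 2, 4, 2, 1, 3 and 4, in that order. The members tested numbered 28, 31, 31, 28, 31, 27 and 30. The share of all features at this unadjusted threshold was not computed for single comparisons, so these counts are a description only.

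**Figure D1:**
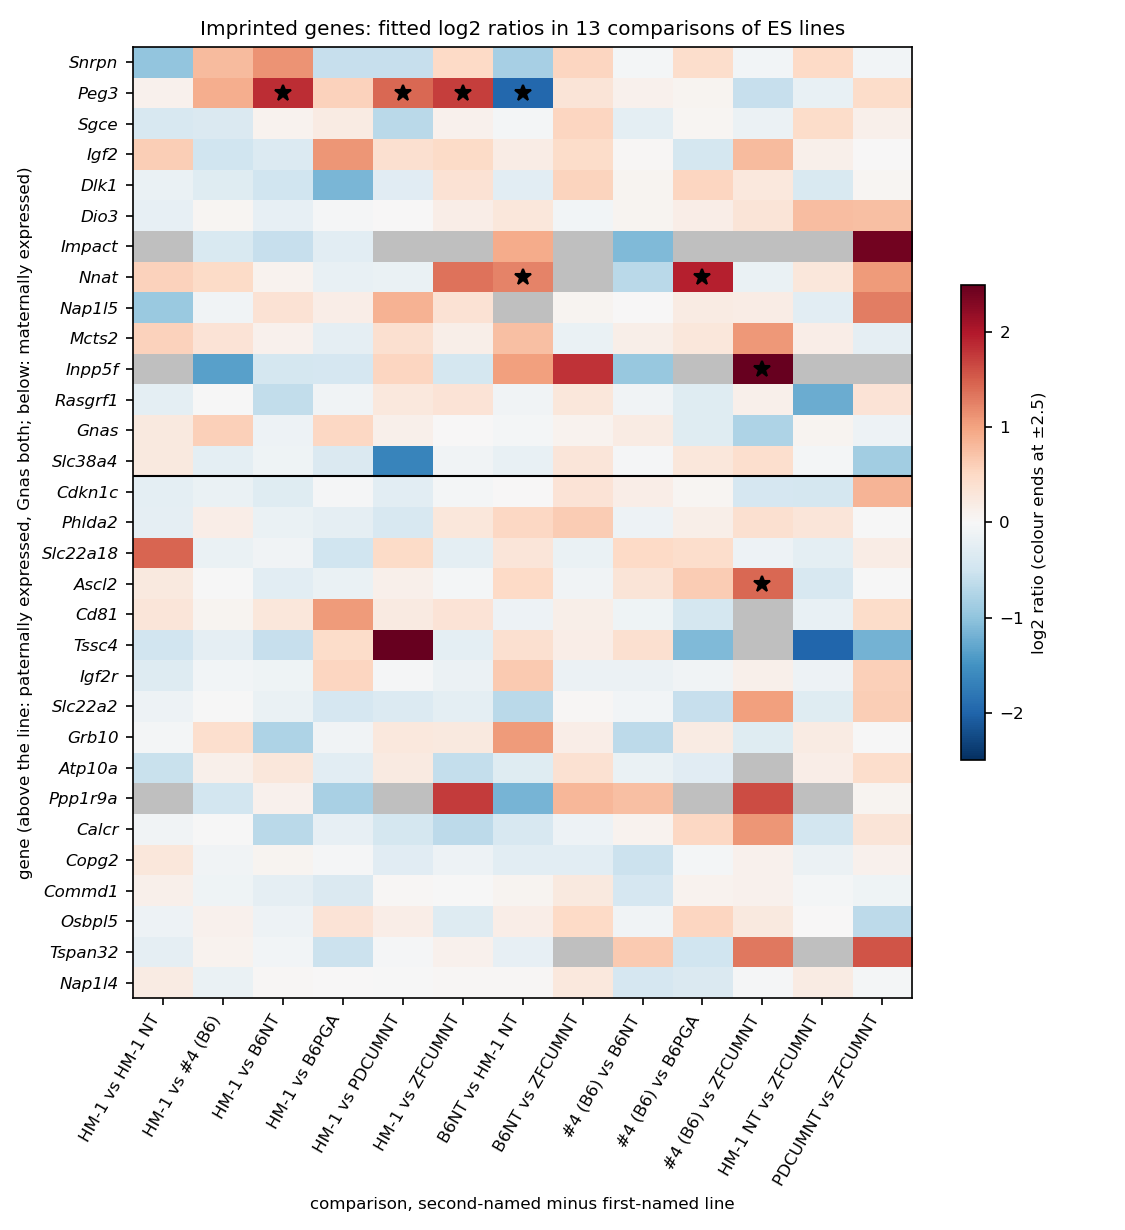
Fitted log2 ratios of the 31 imprinted genes (rows) in the 13 comparisons (columns), second-named minus first-named line; a star marks an adjusted p under 0.05 and grey a gene not tested there. Peg3 has 4 of the 8 stars, and most other cells are pale.

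When a single value was fitted per line from all arrays, 29 members could be tested and 3 differed among the 7 lines, against 3.36% of all features. They were Peg3 (adjusted p = 4.5e-05, limma F test), Nnat (0.014) and Ascl2 (0.04). Ascl2 lost this call in 27 of 74 alternatives, where its adjusted p reached 0.62. With the ratios left as they stand none of the 3 passed, 6 other members did (Nap1l5, Gnas, Cd81, Igf2r, Atp10a and Commd1), and 18.5% of all features were called. At an unadjusted p under 0.05 there were 6 of 29 members, against 15.9% of all features. Impact and Ppp1r9a were measured on 33 and 37 arrays and were left out of this fit. The median gap between the lowest and the highest line was 0.61 for the members and 0.74 for all features.

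The proximal promoters of these 3 genes are shown because these members differed among lines, with each CG, the site of DNA methylation, in capitals. They are the 250 bases before the RefSeq start site in GRCm38.p6, read 5′ to 3′ on the strand of the gene, at chr7:6730420-6730669 (minus strand) for Peg3, chr2:157559828-157560077 (plus) for Nnat and chr7:142969265-142969514 (minus) for Ascl2. The build of the array probes is not given in the sources used here.
Peg3: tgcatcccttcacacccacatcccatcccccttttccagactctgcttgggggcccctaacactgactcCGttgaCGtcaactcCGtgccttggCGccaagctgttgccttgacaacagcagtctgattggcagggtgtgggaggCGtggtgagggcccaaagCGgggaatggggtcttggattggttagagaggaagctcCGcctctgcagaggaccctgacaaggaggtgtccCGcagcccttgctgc
Nnat: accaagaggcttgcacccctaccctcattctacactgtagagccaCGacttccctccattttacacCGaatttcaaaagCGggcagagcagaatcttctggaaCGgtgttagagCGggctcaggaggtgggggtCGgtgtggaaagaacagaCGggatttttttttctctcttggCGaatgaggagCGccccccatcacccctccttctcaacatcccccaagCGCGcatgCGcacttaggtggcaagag
Ascl2: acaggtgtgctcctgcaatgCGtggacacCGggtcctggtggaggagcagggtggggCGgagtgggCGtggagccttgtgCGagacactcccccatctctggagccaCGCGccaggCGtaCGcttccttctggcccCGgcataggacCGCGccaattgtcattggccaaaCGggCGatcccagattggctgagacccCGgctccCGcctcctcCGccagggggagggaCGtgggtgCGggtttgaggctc
These windows held 8, 12 and 19 CG, and 57.0%, 66.5% and 80.3% of 32851 RefSeq mouse promoters held fewer. The letters TGCCGC, the motif of the imprint-protecting factor ZFP57, were in none of the 3 windows on either strand. They were in 6 of 44 promoters of the 27 members with an entry (13.6%) and in 8.7% of all promoters. A match in such a window is a description of its letters only.

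Peg3 (Entrez gene 18616, chromosome 7) encodes a large zinc finger protein that represses transcription and acts in fetal growth and maternal behaviour. In HM-1 vs B6NT its log2 ratios on arrays 1 to 4 were 2.23, 2.11, 1.69 and 1.34. All 4 were positive in both dye orientations, and the fitted value was 1.84 ± 0.34 (SE, n = 4 arrays, limma adjusted p = 0.0049). In HM-1 vs ZFCUMNT the arrays were at 2.21, 2.16, 1.44 and 1.11, again all positive, with a fitted value of 1.73 ± 0.34 (adjusted p = 0.013, limma). HM-1 vs PDCUMNT gave 1.94, 1.66, 0.99 and 1.17 and a fitted value of 1.44 ± 0.34 (adjusted p = 0.024, limma). The 3 comparisons share HM-1 as their first line.

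B6NT vs HM-1 NT had Peg3 negative on all 4 arrays, at -1.74, -1.55, -2.16 and -2.42, with a fitted value of -1.97 ± 0.34 (limma adjusted p = 0.0014). It holds no HM-1 array, and its sign places HM-1 NT on the same side of B6NT as HM-1. This call held with each array left out in turn. In all 4 called comparisons no array had the sign opposite to the fitted value. The 3 with HM-1 were lost from the calls when a single array was left out: HM-1 vs B6NT without array 3 (adjusted p = 0.06), HM-1 vs PDCUMNT without array 1, 2 or 4 (0.094, 0.073 and 0.072) and HM-1 vs ZFCUMNT without any 1 of the 4 (0.053 to 0.14). All 4 were lost when each comparison was fitted alone.

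The remaining comparisons with HM-1 had smaller values of the same sign. Peg3 in HM-1 vs #4 (B6) was at 1.71, 1.51, 0.06 and 0.32, with a fitted value of 0.90 (unadjusted p = 0.0125, adjusted 0.77, limma). HM-1 vs B6PGA gave 0.83, 1.10, 0.02 and 0.37, with a fitted value of 0.58, not called. In both, arrays 1 and 2 exceeded arrays 3 and 4. HM-1 vs HM-1 NT gave 0.31, 0.64, -0.11 and -0.44, on both sides of 0, with a fitted value of 0.10.

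Over the 20 arrays that set HM-1 against the 5 lines without HM-1 in their name, Peg3 was positive on 20. Over all 28 arrays linking HM-1 or HM-1 NT with 1 of those 5 lines, 26 had the sign that puts the other line above, with values from -2.09 through a median of 1.47 to 2.42. Both exceptions were in HM-1 NT vs ZFCUMNT, where the arrays were at -1.10, 1.97, -2.09 and 0.49 and the fitted value was -0.18. Across all features, arrays 1, 3 and 4 of that comparison correlated below 0 with the line values from the other comparisons (Spearman -0.03, -0.08 and -0.005), and array 2 above it (0.11). So did arrays 3 and 4 of HM-1 vs #4 (B6) (-0.06 and -0.04), where Peg3 was positive. Arrays 2 and 3 of PDCUMNT vs ZFCUMNT were also below 0 (-0.01 and -0.0009). On the 24 arrays outside the 28, Peg3 ran from -1.74 to 1.53 with a median of -0.02.

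**Figure D2:**
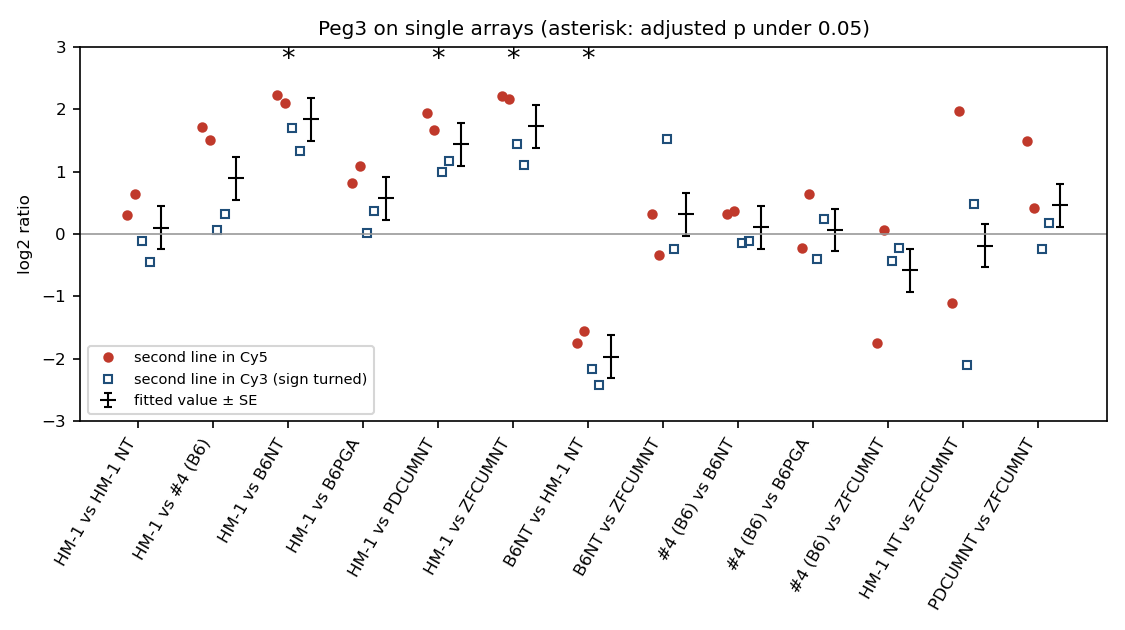
Peg3 log2 ratio (second-named minus first-named line) on each array of the 13 comparisons; filled circles have the second line in Cy5, open squares have it in Cy3 with the sign turned, and dashes with bars are fitted values ± SE. The 4 starred comparisons lie wholly on 1 side of 0, while HM-1 NT vs ZFCUMNT is spread from -2.09 to 1.97.

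Fitted per line, Peg3 was lowest in HM-1 (highest if the dyes were the other way round) and next in HM-1 NT, at 0.39 ± 0.28 (SE) above HM-1. It was at 0.96 ± 0.32 above HM-1 in B6PGA, 1.10 ± 0.32 in PDCUMNT, 1.23 ± 0.24 in ZFCUMNT, 1.28 ± 0.25 in #4 (B6) and 1.62 ± 0.25 in B6NT. HM-1 lay below each of these 5 lines with a 95% interval that left out 0. HM-1 NT did so for ZFCUMNT, #4 (B6) and B6NT but not for B6PGA (-0.24 to 1.38) or PDCUMNT (-0.06 to 1.49). No neighbours in this order differed beyond their interval, HM-1 and HM-1 NT included (-0.17 to 0.94). Without the HM-1 NT vs ZFCUMNT arrays the value of HM-1 NT was -0.14, on the other side of HM-1.

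A single value per line did not describe all Peg3 ratios equally well. The test of whether the 13 comparisons add up gave Peg3 an adjusted p of 0.243 (limma; 0.00142 before adjustment), and over all features 0.109% passed after adjustment and 7.16% before it. The widest gap was in the triangle of B6NT, HM-1 NT and ZFCUMNT, where HM-1 NT vs ZFCUMNT was -0.18 when measured directly and 2.29 when summed through B6NT. Leaving out 1 comparison at a time gave unadjusted p-values from 0.00124 to 0.0112.

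Snrpn, which encodes a spliceosomal Sm protein and is a classical paternally expressed gene, was not called anywhere. In HM-1 vs B6NT its arrays were at 1.33, 1.21, 1.14 and 0.79, with a fitted value of 1.11 ± 0.52 (SE, n = 4, limma adjusted p = 0.86). B6NT vs HM-1 NT gave -0.64, -1.26, -1.35 and -0.05, with a fitted value of -0.83 (adjusted p = 0.66, limma). Both sets were wholly on 1 side of 0, with the signs that Peg3 had there. Fitted values also had the sign of Peg3 in HM-1 vs #4 (B6) (0.79) and HM-1 vs ZFCUMNT (0.50). They had the opposite sign in HM-1 vs PDCUMNT (-0.575), where Peg3 was called, and in HM-1 vs B6PGA (-0.57). HM-1 vs HM-1 NT was at -0.98 through a single array at -5.57, the other arrays lying between 0.35 and 0.82.

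Nnat (Entrez gene 18111, chromosome 2), neuronatin, is a small membrane proteolipid of brain and islet cells. B6NT vs HM-1 NT gave 1.49, 1.09, 1.20 and 1.16, all positive and close together, with a fitted value of 1.24 ± 0.32 (SE, n = 4, limma adjusted p = 0.048). Its sign there was opposite to that of Peg3 on the same arrays. This call held in 4 of 14 alternatives. It was lost without array 1, 3 or 4 (adjusted p = 0.11, 0.22 and 0.21), with array weights (0.066), scaling (0.099), single probes (0.05), a replicate block (0.054), no dye term (0.21), a separate fit (0.67) and unturned ratios (0.99). In #4 (B6) vs B6PGA 3 arrays measured Nnat, at 2.44, -0.20 and 3.11, and the fitted value was 1.93 ± 0.38 (adjusted p = 0.0033, limma). Arrays 3 and 4, of the same dye orientation, lay far apart. Without array 4 the value was 1.12 (adjusted p = 0.22), and without array 2 Nnat could not be tested there. This call was also lost with no dye term (adjusted p = 0.061), a separate fit (0.65) and unturned ratios (1).

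Elsewhere the Nnat ratios were smaller or more scattered. HM-1 vs ZFCUMNT had 1.92, 1.82, 0.87 and 0.86, all positive, with a fitted value of 1.37 (adjusted p = 0.097, limma, and 0.023 or 0.027 without array 3 or 4 of #4 (B6) vs B6PGA, which enter the shared spread). PDCUMNT vs ZFCUMNT had 1.94, 1.28, 0.87 and 0.16, also all positive, with a fitted value of 1.06 (adjusted p = 0.11). HM-1 vs PDCUMNT split by dye, at 0.29 and 1.19 against -1.10 and -1.02. HM-1 vs B6PGA stayed near 0, with a fitted value of -0.19.

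By line, Nnat was lowest in B6NT (-0.22 relative to HM-1) and PDCUMNT (-0.20), followed by HM-1, #4 (B6) at 0.24, HM-1 NT at 0.71, ZFCUMNT at 0.81 and B6PGA at 0.82. With the dyes the other way round this order runs from B6PGA as lowest to B6NT as highest. Neighbours did not differ beyond their 95% intervals, but B6NT and HM-1 NT did (0.93, interval 0.35 to 1.51), as did B6NT and ZFCUMNT (1.03, interval 0.46 to 1.61). The B6PGA value rested on 2 comparisons that disagreed: it was 2.67 without HM-1 vs B6PGA and -0.19 without #4 (B6) vs B6PGA. For Nnat the test of adding up gave an adjusted p of 0.194 (limma; 0.000585 before adjustment), and the unadjusted value was 0.422 without HM-1 vs B6PGA and 0.185 without #4 (B6) vs B6PGA. PDCUMNT and ZFCUMNT, both named with CUMNT in the labels, were 1.02 apart (interval 0.38 to 1.65).

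Inpp5f encodes an inositol phosphatase with a brain transcript of paternal origin, and its probe does not say which transcript it reads. In #4 (B6) vs ZFCUMNT the arrays were at 4.02, 5.05, -0.13 and 3.92, with a fitted value of 3.22 ± 0.74 (SE, n = 4, limma adjusted p = 0.025). Array 3 was near 0 while the others were high. The call was lost in 7 of 14 alternatives, namely without array 1, 2 or 4 (adjusted p = 0.15, 0.17 and 0.068), with array weights (0.4), scaling (0.46), a separate fit (0.41) and unturned ratios (0.43). Inpp5f was measured on 41 of the 52 arrays. Its lowest comparison was HM-1 vs #4 (B6), at -4.69, -1.87, 0.97 and 0.19 (fitted -1.35), where the dye orientations had opposite signs. B6NT vs ZFCUMNT, with 3 arrays at 1.56, 1.53 and 2.46, was at 1.82 and not called (adjusted p = 0.92). Inpp5f did not pass the test among lines (adjusted p = 0.2, limma F test).

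Ascl2 (Entrez gene 17173, chromosome 7), a bHLH factor that trophoblast needs, was the maternally expressed gene that was called. In #4 (B6) vs ZFCUMNT its arrays were at 1.42, 2.42, 1.63 and 0.26, all positive, with a fitted value of 1.43 ± 0.25 (SE, n = 4, limma adjusted p = 0.0017). That call held with each array left out in turn and was lost when the comparison was fitted alone. #4 (B6) vs B6PGA also had 4 positive arrays, at 1.06, 0.06, 0.56 and 0.89, but was not called (0.64, adjusted p = 0.29). HM-1 vs #4 (B6) was at -0.41, 0.04, -0.08 and 0.40, around 0. HM-1 NT vs ZFCUMNT ran from -1.55 to 0.68.

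By line, Ascl2 was lowest in #4 (B6), at -0.61 ± 0.17 (SE) relative to HM-1, and highest in HM-1 NT, at 0.39 ± 0.19, the reverse if the dyes were the other way round. B6NT (-0.11), B6PGA (-0.06), ZFCUMNT (0.14) and PDCUMNT (0.14) lay near HM-1. #4 (B6) was below its next neighbour B6NT by 0.50, with an interval of 0.13 to 0.87, and the other neighbours did not differ beyond theirs. Without #4 (B6) vs ZFCUMNT, the value of #4 (B6) moved to -0.34 and the test among lines no longer passed. The test of adding up gave Ascl2 an adjusted p of 0.65 (limma; 0.0367 before adjustment), and the unadjusted value was 0.537 without #4 (B6) vs ZFCUMNT and 0.27 without HM-1 vs #4 (B6).

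**Figure D3:**
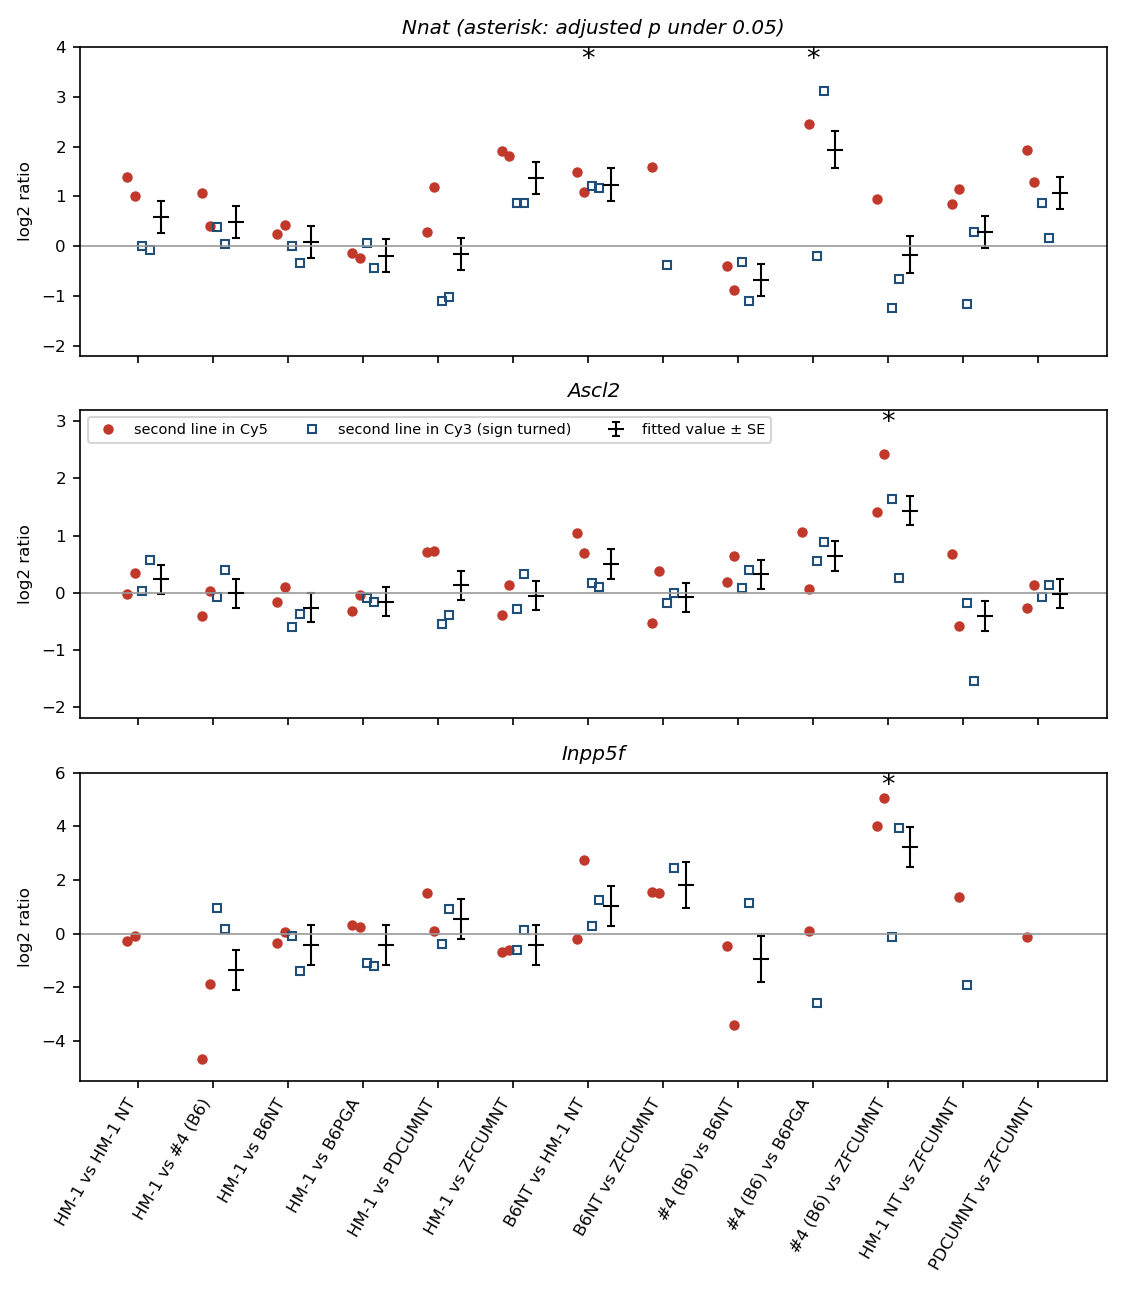
Log2 ratios of Nnat, Ascl2 and Inpp5f on each array of the 13 comparisons, drawn as for Peg3: filled circles have the second line in Cy5, open squares in Cy3, and dashes with bars are fitted values ± SE where tested. Ascl2 departs from 0 mainly in #4 (B6) vs ZFCUMNT, and Inpp5f spans from -4.69 to 5.05.

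**Figure D4:**
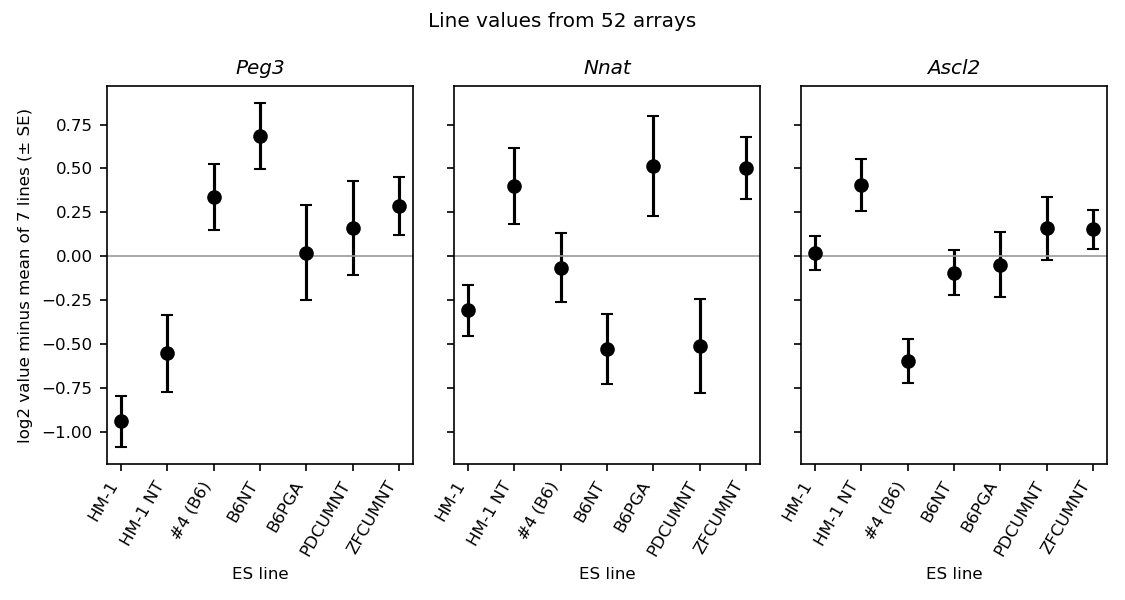
Line values of Peg3, Nnat and Ascl2 as log2 minus the mean of the 7 lines, with SE, from all 52 arrays (48 for Nnat). HM-1 and HM-1 NT are lowest for Peg3, B6NT and PDCUMNT for Nnat, and #4 (B6) for Ascl2, and they are highest if the dyes were the other way round.

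The other growth genes of the paternal class were not called. Igf2, the fetal growth factor, ran from -0.50 in HM-1 vs #4 (B6) to 1.09 in HM-1 vs B6PGA, where the arrays were at 0.75, 0.81, 2.66 and 0.16 (adjusted p = 0.17, limma). All 4 were positive, and array 3 was the highest. Dlk1, a Notch-family ligand of precursor cells, was lowest in the same comparison at -1.14 (adjusted p = 0.14, limma), with arrays at -1.61, -2.95, 0.20 and -0.21. The arrays with B6PGA in Cy5 were far from 0 and the others near it, and without array 3 Dlk1 passed (-1.55, adjusted p = 0.037). Its 2 probes disagreed there: 1 passed when tested singly, at -2.14 ± 0.48 (SE, adjusted p = 0.023, limma), and the other was at -0.14 (adjusted p = 1). They had the same sign in 5 of the 11 comparisons that tested both. In HM-1 vs B6PGA, where Igf2 and Dlk1 were farthest from 0, fibroblast and feeder markers also had their highest median of the 13 comparisons, 0.97, with 18 of 19 positive and 8 called, against 0.494% of all features. Its neighbour Dio3, which inactivates thyroid hormone, ran from -0.20 to 0.77, and Dlk1 from -1.14 to 0.56.

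Gnas, which encodes the stimulatory G protein alpha subunit and other transcripts, ran from -0.78 in #4 (B6) vs ZFCUMNT to 0.59 in HM-1 vs #4 (B6), where all 4 arrays were positive (0.71, 0.72, 0.43 and 0.49; adjusted p = 1). The #4 (B6) vs ZFCUMNT arrays were at -0.07, 0.87, -1.04 and -2.87, and without array 2 Gnas passed there (-1.21, adjusted p = 0.02). Tested singly on all arrays, 1 Gnas probe passed in that comparison (-1.32 ± 0.29, SE, adjusted p = 0.016, limma), while the others were at 0.03 and -1.63 (adjusted p = 0.98 and 0.2). Its 3 probes had the same sign in 4 of the 12 comparisons that tested all of them. Slc38a4, an amino acid transporter, was at -1.65 in HM-1 vs PDCUMNT (adjusted p = 0.093, limma), with arrays at 0.36, -6.07, -0.18 and -0.71. Array 2 carried that value, which passed without array 1 (-2.41, adjusted p = 0.014) or array 3 (-2.07, 0.049). Impact, a regulator of translation, was at 2.41 in PDCUMNT vs ZFCUMNT on 3 arrays (2.94, 0.39 and 3.66; adjusted p = 0.094, limma) and could be tested in 6 comparisons. Without array 3, the one at 0.39, it passed on the 2 arrays left (3.30, adjusted p = 0.042).

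The rest of the paternal class was not called. Sgce, a sarcoglycan, ran from -0.68 to 0.53, Nap1l5 from -0.93 to 1.28, Mcts2 from -0.23 to 1.08 and Rasgrf1, a Ras exchange factor, from -1.24 to 0.35. Their smallest adjusted p-values in any comparison were 0.4, 0.51, 0.25 and 0.56 (limma). Before adjustment Sgce reached 0.0393 in HM-1 vs PDCUMNT, Mcts2 0.0191 in #4 (B6) vs ZFCUMNT and Rasgrf1 0.0457 in HM-1 NT vs ZFCUMNT. Mcts2 was positive on all 4 arrays there (2.41, 0.62, 0.52 and 0.79), while Rasgrf1 rested on array 2 at -5.65. The median SE per comparison was 0.32 for Sgce and 0.61 for Nap1l5. The 2 Sgce probes had the same sign in 6 of the 12 comparisons that tested both.

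The members of distal chromosome 7 lie in the order Igf2, Ascl2, Tspan32, Cd81, Tssc4, Cdkn1c, Slc22a18, Phlda2, Nap1l4 and Osbpl5, a region known for a paternally expressed growth factor beside maternally expressed neighbours. Ascl2 was the member of this row that was called. Its near neighbour Cd81, a tetraspanin, was at 1.59, 1.17, 0.63 and 0.85 in HM-1 vs B6PGA, all positive, with a fitted value of 1.06 (adjusted p = 0.064, limma, and 0.019 or 0.014 without array 1 or 3 of #4 (B6) vs B6NT), in the comparison with the highest feeder marker median. On the same arrays Ascl2 was at -0.33, -0.05, -0.09 and -0.16, all negative. Phlda2, a restraint on placental growth, had the smallest residual spread of the members (SD 0.34) and ran from -0.41 to 0.63. It had 3 comparisons with an unadjusted p under 0.05 and an adjusted p of 0.12 among lines (limma F test).

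Cdkn1c, an inhibitor of cyclin-dependent kinases, ran from -0.44 in HM-1 NT vs ZFCUMNT to 0.86 in PDCUMNT vs ZFCUMNT. Slc22a18 reached 1.46 in HM-1 vs HM-1 NT (adjusted p = 0.12, limma) through array 4 at 4.43, beside -0.33 and -0.18 on arrays 1 and 2, and passed without array 1 or 2 (adjusted p = 0.027 and 0.03). Tssc4 ran from -1.98 to 2.53 and Tspan32 from -0.53 to 1.57, with residual SDs of 1.61 and 1.71 against a median of 0.70 over the members. Nap1l4 (-0.42 to 0.26) and Osbpl5 (-0.66 to 0.53) stayed nearer to 0. Nap1l4 had 2 probes of the same sign in 7 of 13 comparisons, and Osbpl5 in 5 of 13.

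Maternally expressed genes elsewhere in the genome were not called either. Igf2r, the receptor that clears Igf2, ran from -0.33 to 0.66. The 0.66, in B6NT vs HM-1 NT, came from 1 of its 3 probes, which was at 2.27 and was measured on 33 arrays, beside -0.29 and -0.003 on the others. The 3 probes had the same sign in 2 of the 7 comparisons that tested all of them. Its neighbour Slc22a2 ran from -0.67 to 1.02. Slc22a2 passed in #4 (B6) vs B6PGA only without array 4 (-2.23, adjusted p = 0.0092). Grb10, an adaptor that damps insulin signalling, ran from -0.77 in HM-1 vs B6NT to 1.06 in B6NT vs HM-1 NT. The 2 Grb10 probes had the same sign in 4 of the 11 comparisons that tested both. Calcr, the calcitonin receptor, was highest in #4 (B6) vs ZFCUMNT at 1.11 (adjusted p = 0.2, limma) and lowest in HM-1 vs B6NT at -0.68. Ppp1r9a ran from -1.16 to 1.74 over 9 comparisons and Atp10a from -0.60 to 0.44. Commd1 ran from -0.42 to 0.24 and Copg2 from -0.55 to 0.29. The 2 Copg2 probes had the same sign in 4 of 13 comparisons and singly ran from -1.16 to 0.52, and the -1.16, in #4 (B6) vs B6NT, stood beside 0.07 on the other probe (adjusted p = 0.26 and 1, limma).

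The medians of both classes lay between -0.14 and 0.33 in every comparison. Over the 13 comparisons the median of the paternally expressed genes ran from -0.14 in HM-1 vs B6PGA to 0.33 in HM-1 vs ZFCUMNT, where 11 of 13 tested members were positive and the median of all features was -0.06. On single arrays of HM-1 vs ZFCUMNT that median was 0.60, 0.26, 0.23 and 0.20. B6NT vs ZFCUMNT had 10 of 12 paternally expressed members positive and a median of 0.31, against 0.06 for all features, with no call. The median of the maternally expressed genes ran from -0.13 in HM-1 NT vs ZFCUMNT to 0.17 in B6NT vs ZFCUMNT. Per line, the paternally expressed medians relative to HM-1 lay between -0.07 (PDCUMNT) and 0.28 (ZFCUMNT), and the maternally expressed ones between -0.11 (B6NT) and 0.06 (PDCUMNT).

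**Figure D5:**
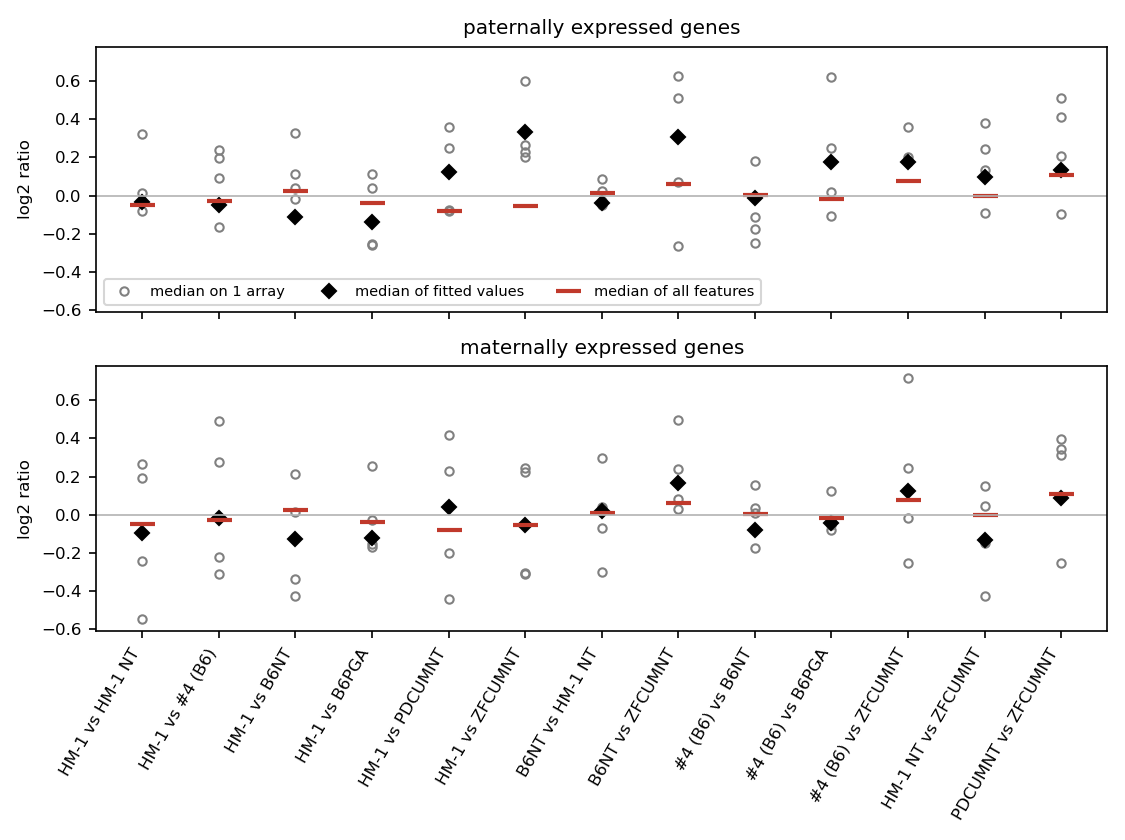
Median log2 ratio of the paternally (top) and maternally (bottom) expressed genes in each comparison: open circles are medians on single arrays, diamonds medians of the fitted values, and red dashes the median of all features. In HM-1 vs ZFCUMNT the paternally expressed genes had 4 array medians between 0.20 and 0.60, above the median of all features at -0.06.

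Other imprinted genes outside the 31 were looked up from a list of 49, of which 11 were on the array. Ano1, a chloride channel, was the 1 called, in HM-1 vs PDCUMNT (2.57 ± 0.60, SE, 3 arrays, limma adjusted p = 0.021), where 1.14% of all features were called, and none of the 11 passed the test among lines. A list drawn up for imprint maintenance, some of its members with wider roles, held 31 factors. Of these 15 were on the array and 5 differed among lines, against 3.36% of all features. These were Dppa3 (adjusted p = 8.6e-06, limma F test), Uhrf1 (0.001), Dnmt3l (0.0013), Trim28 (0.015) and Dnmt1 (0.047). Dppa3, which shields methylation marks in the early embryo, was lowest in HM-1, from 0.43 above it in B6PGA to 1.41 in B6NT and 1.70 in HM-1 NT, and its 2.18 ± 0.35 in HM-1 vs HM-1 NT was called (SE, 4 arrays, limma adjusted p = 0.0012). Dnmt3l, a cofactor of new DNA methylation, was highest in PDCUMNT (1.35 above HM-1) and ZFCUMNT (1.25). Uhrf1, which brings Dnmt1 to replicated DNA, was lowest in B6PGA (-0.80) and highest in ZFCUMNT (0.89), or the reverse with the dyes the other way round, and its 2.44 ± 0.45 in #4 (B6) vs ZFCUMNT was called (SE, 3 arrays, limma adjusted p = 0.0025). Dnmt1, the maintenance methyltransferase, ran only from -0.29 in B6PGA to 0.28 in B6NT. Trim28, the corepressor that ZFP57 recruits to imprinted control regions, was lowest in HM-1 and at most 0.65 above it, in HM-1 NT.

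Markers of other cells moved with some of these comparisons. Of 24 fibroblast and feeder markers 19 were on the array and 10 of 18 tested differed among lines, against 3.36% of all features. Their median relative to HM-1 was 0.45 in HM-1 NT, 0.36 in #4 (B6), 0.02 in B6NT, 0.66 in B6PGA, 0.20 in PDCUMNT and 0.30 in ZFCUMNT. B6NT had the marker median nearest to that of HM-1. The ES marker Zfp42 was, like Peg3, nearest to HM-1 in HM-1 NT, with the opposite sign: relative to HM-1 it was at -0.51 in HM-1 NT and from -2.22 to -2.74 in the other 5 lines (adjusted p = 1.1e-11, limma F test). It was called in all 5 comparisons of HM-1 with those lines (-2.14 to -2.90) and in B6NT vs HM-1 NT (2.24). The other ES markers that passed among lines did not all split the lines in this way. Pou5f1, Dppa5a, Klf4, Klf5 and Rif1 lay on both sides of HM-1 within those 5 lines. Lin28a was at 0.33 in HM-1 NT and from -0.58 to -0.11 in the 5. In B6NT vs HM-1 NT, where Peg3 was negative and Nnat positive, the marker median was 0.51, with 16 of 18 positive. In #4 (B6) vs ZFCUMNT, where Inpp5f and Ascl2 were called, it was -0.04, and the 14 undifferentiated ES markers tested had a median of 0.55 with 11 positive. Among lines 7 of 14 ES markers, 1 of 5 trophectoderm, 0 of 9 endoderm and 0 of 3 cumulus and granulosa markers passed the limma F test, against the same background of 3.36%. The part of these markers in the imprinted gene results was not tested.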

How the data were processed

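Mouse ES lines were compared on 52 two-colour arrays, from 20 microgram of total RNA per labelling, per the labels' protocols. These protocols also speak of organs and a reference pool, while both channels of every array carry the name of an ES line, and these names were used. The authors deposited 1 log2 ratio per probe and array, with log2 read from the range of the values. Background correction, normalization and log base are not given in the sources used here. Array medians ran from -0.20 to 0.46, and 17620 to 20200 probes per array were measured. Precision is limited by the number of arrays.

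Ratios were turned by the dye labels. The 20 to 174 probes per array at 1 constant top value (15.7 to 17.4) were taken as not measured. Probes of a symbol were averaged, giving 17053 features. All arrays were fitted in limma 3.58.1 (R 4.3.3) with 13 comparison coefficients and a dye term, with Benjamini-Hochberg adjustment within each comparison and a threshold of 0.05. A feature needed 3 of 4 arrays, in both orientations. Lines were fitted with 6 coefficients against HM-1 over features on at least 39 arrays, and a moderated F test over 7 contrasts asked whether the comparisons add up. The fits were tested on simulated data. Named with array values were members called in a comparison or among lines and, chosen after their values were seen, some others. Members and lists were chosen with earlier results of these data known. Alternatives were array weights, centring, scaling, kept top values, single probes, unturned ratios, no dye term, a replicate block, no filter, separate fits, and left-out arrays or comparisons.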

Additional observations from a re-analysis of the deposited data

Results flagged for a closer look

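The called members and the class medians made 34 results, and those with 4 arrays were examined for 1 array standing apart from the other 3. Dixon's ratio of the gap to the range was used, with its 95% critical value for 4 samples. Nnat in #4 (B6) vs B6PGA was measured on 3 arrays and could not be examined. Chance flags about 1 in 20 such groups, and 3 were found. In HM-1 vs ZFCUMNT the median of the paternally expressed genes was 0.60 on array 1 and 0.20 to 0.26 on the others (ratio 0.843). In #4 (B6) vs ZFCUMNT the paternally expressed median was 0.36 on array 3 and 0.18 to 0.20 elsewhere (ratio 0.87). In PDCUMNT vs ZFCUMNT the maternally expressed median was -0.25 on array 4 and 0.32 to 0.40 on the others (ratio 0.874).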

How the results depend on the processing

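With each of the 52 arrays left out in turn there were 6 to 9 calls of members in all, against 8 from all arrays. The counts by comparison that follow leave out only the 4 arrays of that comparison in turn. So Nnat in HM-1 vs ZFCUMNT, which passed without array 3 or 4 of #4 (B6) vs B6PGA, is not among them. By comparison, HM-1 vs HM-1 NT had 0 to 1 and the others had 0 to 0 in HM-1 vs #4 (B6), 0 to 1 in HM-1 vs B6NT, 0 to 1 in HM-1 vs B6PGA, 0 to 2 in HM-1 vs PDCUMNT, 0 to 0 in HM-1 vs ZFCUMNT, 1 to 2 in B6NT vs HM-1 NT, 0 to 0 in B6NT vs ZFCUMNT, 0 to 0 in #4 (B6) vs B6NT, 0 to 1 in #4 (B6) vs B6PGA, 1 to 2 in #4 (B6) vs ZFCUMNT, 0 to 0 in HM-1 NT vs ZFCUMNT and 0 to 1 in PDCUMNT vs ZFCUMNT. Among lines they were 2 to 4, and for the test of adding up 0 to 1. Array weights gave 2 calls in HM-1 vs B6PGA (Dlk1 and Cd81), 2 in HM-1 vs ZFCUMNT (Nnat added), 1 in B6NT vs HM-1 NT, 1 in #4 (B6) vs ZFCUMNT (Inpp5f lost) and 1 for adding up. Scaling arrays to equal spread gave 3 (Igf2, Dlk1 and Cd81), 2, 1, 1 (Inpp5f lost) and 1 in the same places. Calls over all features shifted as well. In HM-1 vs B6PGA they were 80 in the main fit, 257 with array weights and 367 with scaling. In HM-1 vs ZFCUMNT they were 16, 213 and 44, and in B6NT vs HM-1 NT 158, 128 and 58. In #4 (B6) vs ZFCUMNT they were 147, 41 and 16. Single probes gave 1 in HM-1 vs B6PGA (Dlk1), 1 in B6NT vs HM-1 NT (Peg3) and 3 in #4 (B6) vs ZFCUMNT (a Gnas probe added). Without a dye term there were 4 in all, with 0 in HM-1 vs PDCUMNT, 0 in HM-1 vs ZFCUMNT, 1 in B6NT vs HM-1 NT and 0 in #4 (B6) vs B6PGA, and 1 gene differed among lines. Fitting each comparison alone gave 0 in all, with 0 in HM-1 vs B6NT, HM-1 vs PDCUMNT, HM-1 vs ZFCUMNT, B6NT vs HM-1 NT, #4 (B6) vs B6PGA and #4 (B6) vs ZFCUMNT, on far fewer arrays per fit.

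Leaving the ratios as they stand gave 5 in all: 1 in HM-1 vs HM-1 NT, 1 in HM-1 vs #4 (B6), 0 in HM-1 vs B6NT, 0 in HM-1 vs ZFCUMNT, 0 in B6NT vs HM-1 NT, 1 in HM-1 vs PDCUMNT (Nap1l5 at -1.71 in place of Peg3), 0 in #4 (B6) vs B6PGA, 1 in #4 (B6) vs ZFCUMNT and 1 in HM-1 NT vs ZFCUMNT. It gave 6 genes among lines, where 18.5% of all features passed, and turned Peg3 in B6NT vs HM-1 NT to 0.32. Among lines 1 gene was left without HM-1 vs ZFCUMNT and 1 without B6NT vs HM-1 NT. Peg3 passed the test among lines under 73 of 74 alternatives, Nnat under 69 and Ascl2 under 47, and none of the 3 passed with unturned ratios. A replicate block left 1 call in B6NT vs HM-1 NT, with Nnat at an adjusted p of 0.054 (limma). Deviations of arrays with the same replicate number had a median correlation of 0.075, against 0.0741 for other numbers of the same orientation. These medians cannot tell whether arrays of 1 number were prepared together. Causes of these shifts were not tested.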
